A study of Mus musculus with 2 samples.

Results

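Serpins and other secreted protease inhibitors were examined in total RNA of mouse liver, measured on 2 single-colour oligonucleotide arrays. The members were all genes of the array whose symbol begins with Serpin, Itih, Spink or Spint, and the Timp and Cst genes (such as Timp1, Cst3 and Cstb) that a probe set names alone. This rule gave 39 of the 8251 genes named on the array, read by 49 of 10833 probe sets. The rule uses symbols and no measured value, but it was chosen with earlier results of these data known. Other mouse genes with such symbols were not analysed here. Both samples are titled liver and described as the same purchased liver RNA, while their source field names spleen. They form 1 group with no treatment, and the labels used here name no strain, age, sex or number of animals. The values are signal intensities on a linear scale. The design, 2 arrays of a single group, allows no comparison of groups. Each pair of values gives the signal on replicate 1 and then on replicate 2. Nothing in the labels says that the RNAs were prepared separately, and differences between the arrays may be technical.

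Secreted protease inhibitors limit the proteases of blood clotting, clot lysis, complement and inflammation. A serpin offers a loop as bait, and the protease that cuts it is trapped in a covalent complex. Most plasma serpins and the inter-alpha-trypsin inhibitor heavy chains are made by hepatocytes. The tissue inhibitors of metalloproteinases (Timp), the cystatins (Cst, inhibitors of cathepsins) and the Kunitz and Kazal type inhibitors (Spint, Spink) are made by many cell types. The label of the group covers some members that do other work. Clade B serpins and Cstb act mainly inside cells, and Serpinh1 is a collagen chaperone of the endoplasmic reticulum. Serpina6, Serpinf1 and the inter-alpha-trypsin inhibitor heavy chains are not themselves protease inhibitors.

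For each gene the probe set brightest in mean log2 signal was used. A gene was called above background where both arrays exceeded a threshold set by 96 genes known from brain, testis, eye or striated muscle, the 95th percentile of their signals. That threshold was 544.8 on replicate 1 and 596.8 on replicate 2. Genes under it may still be expressed. Median signals over the whole array were 163.2 and 157.6. All 15 hepatocyte markers were above background, led by Alb and Apoa1, and 0 of 14 lymphoid markers were, among which Cd4 (337.3 and 503.0) and Cd79a (450.3 and 333.4) had the highest signals. Of 8 pancreatic acinar markers, all 8 were above background. Probe brightness depends on probe sequence, so a signal places a gene within the array and does not rank transcripts by amount. In whole tissue, fewer cells of a type and less RNA per cell cannot be told apart.

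The members fell into a bright and a dim set. Of the 39 genes, 17 (43.6%) were above background on both arrays, against 25.3% of all genes, and of their 49 probe sets 20 were, against 20.9% of all probe sets that name 1 gene. All 17 lay among the brightest 10% of genes, and 15 among the brightest 5%. No member lay between Timp1 and Cstb (percentile 93.7), an interval that holds 1539 genes. The median percentile of the members was 58.3, and 13 of the 39 lay below percentile 25. The bright set was made of plasma proteins and 2 cystatins: 6 of 8 clade A serpins, 5 of the 5 serpins of clades C, D, F and G, 4 of 5 inter-alpha-trypsin inhibitor heavy chains, and Cst3 and Cstb. None of the 8 clade B serpins, 2 Spink, 2 Spint and 3 Timp genes was above background on both arrays, nor were Serpinh1 and Serpini1.

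**Figure D1:**
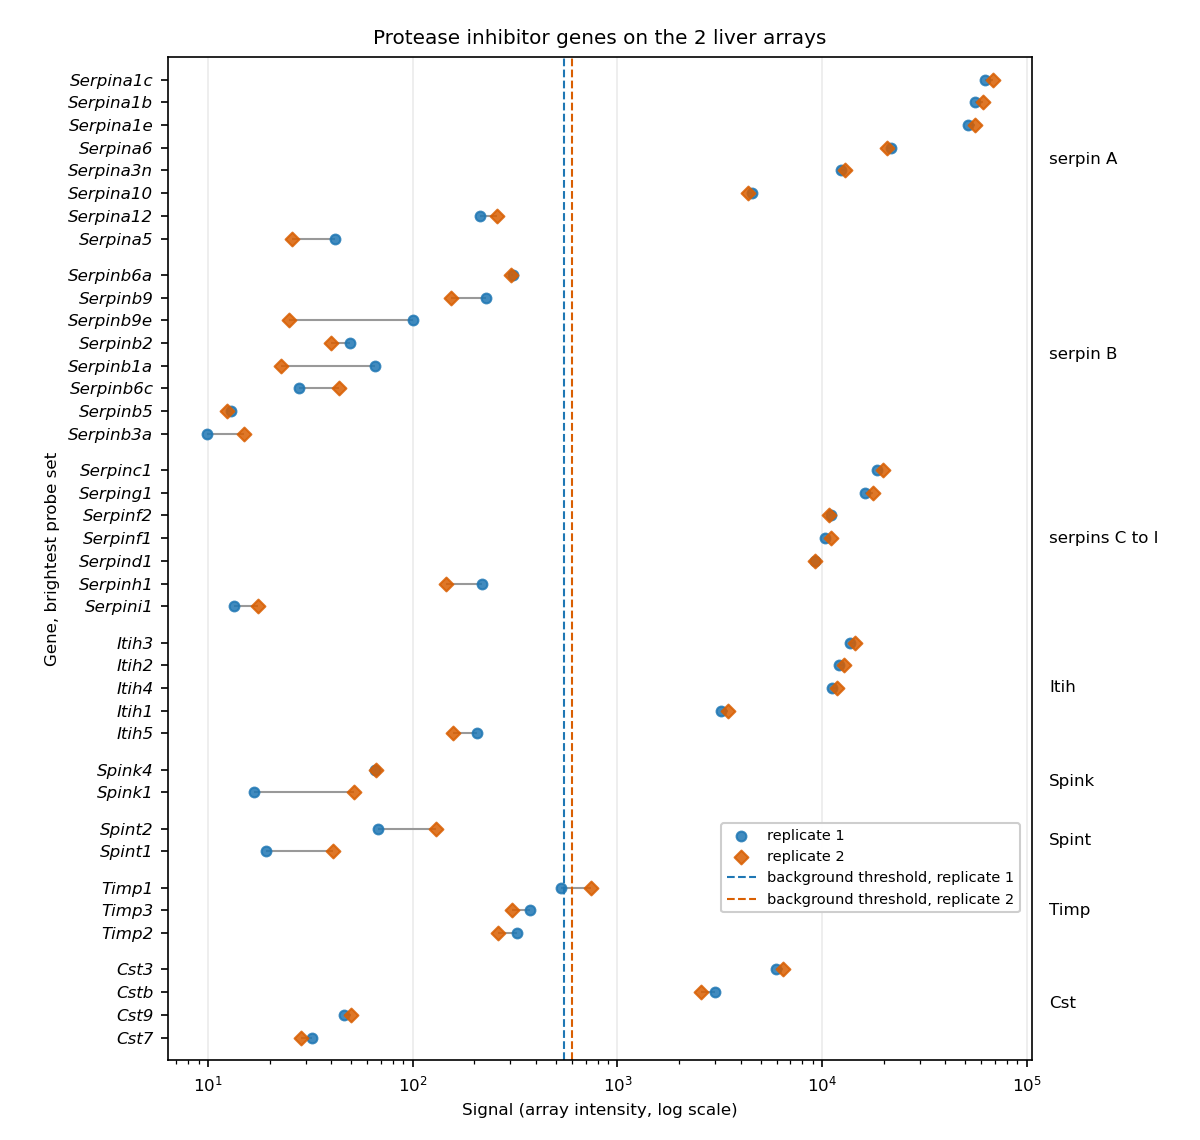
Signal of each of the 39 member genes (array intensity, log axis, brightest probe set) on replicate 1 (circles) and replicate 2 (diamonds), grouped by family, with a grey line joining the values of a gene. Dashed lines mark the background thresholds of 544.8 and 596.8; 17 genes lie to the right of both, and Timp1 straddles them.

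The alpha-1-antitrypsin genes, a group known for inhibiting neutrophil elastase, carried the highest signals of the members. Which proteases each mouse copy inhibits was not examined. Serpina1c gave 62277 and 68150 (mean 65213 ± 4153, SD, n = 2 arrays), Serpina1b 55607 and 61381, and Serpina1e 51569 and 55839. The other probe set of Serpina1c, a plain set without a suffix, gave 53319 and 57318. Counting sets shared by several copies, 6 of the 9 brightest probe sets of each array were assigned to Serpina1 genes. These genes are near-identical copies. The values of Serpina1b and Serpina1e and the higher values of Serpina1c came from sets of suffix f. The probes of such sets match several members of a gene family, so these signals cannot be assigned to 1 copy. Serpina1b and Serpina1e had no other set that names them alone.

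Transcript sequences, which the probes read, were not compared here. How alike the copies are upstream is shown by the 150 bases before the annotated start of each gene, from RefSeq (GRCm38.p6). The dim clade A gene Serpina5 is set beside them. All are given 5′ to 3′ on the gene's strand. Capitals mark GTTAAT, an arm of the palindrome bound by the hepatocyte factor HNF1.
Serpina1b, chr12:103738190-103738339, minus strand: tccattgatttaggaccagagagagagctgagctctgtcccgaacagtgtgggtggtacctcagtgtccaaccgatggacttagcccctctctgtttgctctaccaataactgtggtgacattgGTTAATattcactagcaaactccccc
Serpina1c, chr12:103904951-103905100, minus strand: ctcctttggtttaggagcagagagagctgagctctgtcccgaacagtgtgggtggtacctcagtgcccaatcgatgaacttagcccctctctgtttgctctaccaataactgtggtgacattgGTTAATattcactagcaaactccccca
Serpina1e, chr12:103956898-103957047, minus strand: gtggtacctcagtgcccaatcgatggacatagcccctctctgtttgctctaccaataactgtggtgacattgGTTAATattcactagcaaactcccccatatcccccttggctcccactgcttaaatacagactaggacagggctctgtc
Serpina5, chr12:104100963-104101112, plus strand: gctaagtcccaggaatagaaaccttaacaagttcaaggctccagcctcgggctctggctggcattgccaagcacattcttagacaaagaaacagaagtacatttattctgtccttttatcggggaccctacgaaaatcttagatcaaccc

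Over the 250 bases before the start, the Serpina1b and Serpina1c sequences were identical at 229 of 250 aligned positions (91.6%). Serpina1e matched Serpina1b at 194 of 200 (97.0%) and Serpina1c at 190 of 199 (95.5%), with its annotated start placed farther downstream. A run of 69 bases that holds GTTAAT was the same in all 3. The motif began 26, 27 and 78 bases before the starts of Serpina1b, Serpina1c and Serpina1e. The search read both strands of these 250 bases in the 32 members with a RefSeq promoter entry (34 entries; 7 members had none). GTTAAT occurred in 4 of 13 entries of bright members (the 3 Serpina1 copies and Itih1) and in 1 of 21 entries of the others (Spint1), against 6.43% of all 32851 entries. The 3 Serpina1 matches lie in the shared run and are not independent of each other. The letters TTGCNNAA, a form of the site of C/EBP factors, were found in 3 of 13 and 4 of 21 entries, against 9.56% of all. TATAAA, the TATA box, was found in 0 of 13 and 3 of 21 (entries of Serpinb2 and Serpinb3a), against 12.4%. Of the Serpina1 sequences, Serpina1b and Serpina1e held TTGCNNAA, apart from GTTAAT, and Serpina1c did not. None of them held TATAAA. A match describes letters and is not evidence of binding.

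Of the other clade A serpins, 3 were bright. Serpina6, corticosteroid-binding globulin, which carries cortisol-type hormones in plasma, gave 21684 and 20718. Serpina3n, of the antichymotrypsin group that rises in the acute phase response, gave 12367 and 12904. Serpina10, the protein Z-dependent inhibitor of clotting factor Xa, gave 4523 and 4336. The arrays differed by at most 1.05-fold for these genes. Serpina12 (vaspin, an adipokine) gave 213.1 and 257.3 and Serpina5 (protein C inhibitor) 41.8 and 25.6, both below the threshold on each array. The second probe set of Serpina5 gave 7.1 and 34.7. In the RefSeq gene order Serpina10 and Serpina6 are adjacent, as are Serpina1c and Serpina1e, and as are Serpina12 and Serpina5. Dim and bright members therefore stand in the same gene cluster, with Serpina12 and Serpina5 between Serpina1e and Serpina3n.

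The 5 serpins of clades C, D, F and G, of which 4 control clotting, clot lysis or complement, were all bright. Serpinc1, antithrombin, gave 18608 and 19865 (19237 ± 889, SD, n = 2 arrays). Serpind1, heparin cofactor II, which inhibits thrombin, gave 9263 and 9230. Serpinf2, alpha-2-antiplasmin, gave 11104 and 10763. Serping1, the C1 inhibitor of complement and of the contact system, gave 16277 and 17778. Serpinf1, pigment epithelium-derived factor, an antiangiogenic protein whose gene is adjacent to Serpinf2, gave 10342 and 10997. The lowest percentile of these 5 genes was 98.2 (Serpind1).

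The proteases that these serpins control were for the most part above background in the same RNA. Of 10 coagulation and fibrinolysis proteases 8 were, at a median percentile of 94.8. The brightest was Plg, plasminogen, the target of Serpinf2 once activated, with 41450 and 42597. F2, prothrombin, gave 10662 and 11046. Plg was read from a set of suffix f, which may also take signal of related genes. The plasminogen activators Plat (220.0 and 127.9) and Plau (87.9 and 143.3) were below background. Of 6 complement proteases 5 passed the threshold, at a median percentile of 87.0: Cfi (11476 and 11545), C1ra, C2, Masp2 and Masp1, and the exception was Cfb. C1ra, a target of Serping1, gave 1640 and 1595, also in an f set.

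Proteases of leukocytes and mast cells presented another picture. Of the 16 measured genes of the leukocyte, mast cell and pancreas list 3 passed the threshold, and the median lay at percentile 30.6. All 3 (Ctrb1, Prss2 and Cela1) are pancreatic. Elane, neutrophil elastase, a known target of alpha-1-antitrypsin, gave 175.0 and 279.3, and Ctsg, cathepsin G, 21.7 and 13.6. Tpsb2, a mast cell tryptase, had the highest signal of the genes of the list that are not pancreatic, 606.6 and 575.6, above the threshold on replicate 1 alone.

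The inter-alpha-trypsin inhibitor heavy chains are plasma proteins, of which those of Itih1, Itih2 and Itih3 are coupled to bikunin and transferred to hyaluronan in the matrix. The Itih4 product circulates without bikunin. Itih3 gave 13639 and 14552, Itih2 12134 and 12799, Itih4 11204 and 11852, and Itih1 3200 and 3484. All 4 were above background and differed between the arrays by at most 1.09-fold. Ambp, the precursor of bikunin, gave 26949 and 26874. Itih5, a heavy chain gene known outside the liver, gave 205.9 and 156.5, and its other set read 60.9 and 46.4. The dim Itih5 is adjacent to the bright Itih2, and Itih4, Itih3 and Itih1 lie side by side.

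**Figure D2:**
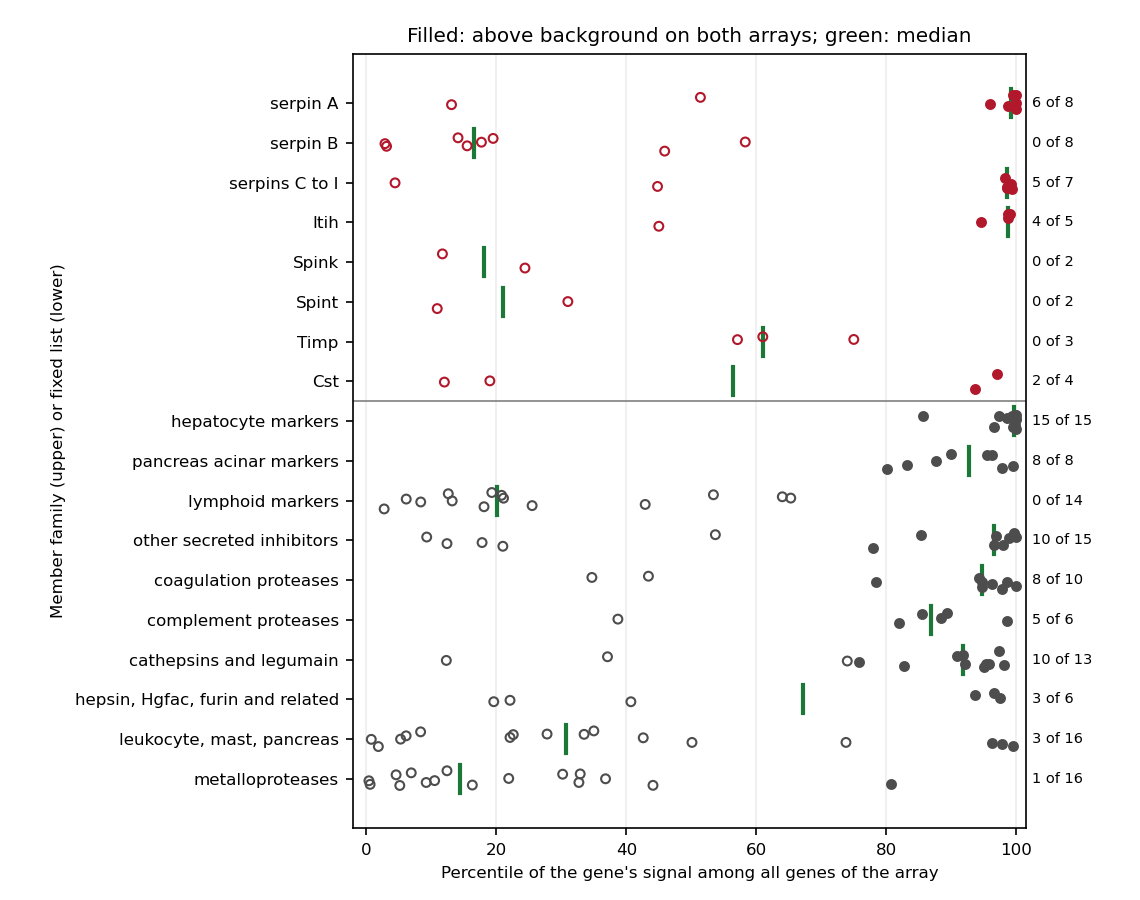
Percentile of each gene's signal (mean of both arrays) among the 8251 genes, with member families above the line and fixed gene lists below it; filled points are above background on both arrays, green bars are medians, and the numbers at the right count filled points. Serpin clade A and Itih members sit at the right end except for Serpina12, Serpina5 and Itih5, and clade B, Spink and Spint members sit at or below percentile 58.3.

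Clade B serpins mostly guard cells against their own or incoming proteases. The 8 measured here, beside 28 such genes in RefSeq, were dim. Their signals ran from 9.9 to 309.2 over both arrays, with a median percentile of 16.6. Serpinb6a had the highest signal (309.2 and 301.6), followed by Serpinb9, the granzyme B inhibitor (226.7 and 153.0). Serpinb9e, Serpinb2, Serpinb1a, Serpinb6c, Serpinb5 and Serpinb3a gave at most 100.1 on either array. Serpinh1, the collagen chaperone, gave 218.1 and 144.8, and Serpini1, neuroserpin, 13.4 and 17.5. Of its collagen clients, Col1a2 was above background in an r set (1493 and 1402) and Col1a1 (343.0 and 312.7) and Col3a1 (236.8 and 170.5) were not.

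Of the 22 dim members, Timp1 lay closest to the threshold. Its product binds matrix metalloproteinases, and it gave 529.9 and 745.5, below the threshold on replicate 1 and above it on replicate 2. Its other probe set gave 17.9 and 33.1. Timp3, which is bound to the matrix, gave 373.7 and 306.9. Timp2 gave 324.5 and 261.1 in the brightest of its 3 sets and lower values in the others. Of 16 metalloproteinase genes, Mmp14, a membrane-bound enzyme that Timp2 binds, was above background (888.6 and 785.2), and the next, Adam10, gave 188.7 and 157.1. The median percentile of that list was 14.3.

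Among the cystatins, Cst3 (cystatin C, a secreted inhibitor made by most cells) gave 5976 and 6462. Cstb, which acts in the cytosol, gave 2986 and 2550. Cst7, made by leukocytes, gave 32.1 and 28.4, and Cst9, known from testis, 46.2 and 49.8. Cystatins inhibit cysteine cathepsins and legumain. Of 13 cathepsin and legumain genes 10 passed the threshold, and their median lay at percentile 91.8. These 10 include Ctsd and Ctse, aspartic proteases, and Ctsa, a serine carboxypeptidase, which cystatins do not inhibit. Ctsb gave 9301 and 8657 and Ctsl 6236 and 7355. Ctsc, Ctsk and Ctsw were not above it on both arrays.

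Spint1 and Spint2 are membrane-bound Kunitz inhibitors of hepsin, matriptase and the activator of hepatocyte growth factor. Spint2 gave 67.6 and 129.5 and Spint1 19.1 and 40.6. Both were below background on each array. Of 6 genes of their target proteases and related genes, Hpn (hepsin, 6863 and 7403), Hgfac (5235 and 5227) and Furin (2833 and 2662) were above background, and Tmprss2, Prss8 and Hgf were not.

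Spink1, the trypsin inhibitor that acinar cells of the pancreas secrete with their enzymes, gave 16.8 and 51.7, below background, from 1 probe set. Spink4, known from intestinal goblet cells, gave 65.2 and 66.0. The pancreatic acinar markers were bright in the same RNA. Ctrb1, chymotrypsinogen, gave 22100 and 22327, Prss2, a trypsinogen, 8217 and 8127, and Cela1, an elastase, 4794 and 5091. Cel, Reg1, Pnliprp1, Rnase1 and Cela2a were also above background, and the summed signal of the 8 genes was 44073 and 44400. Ctrb1 was read from a set of suffix r and Prss2 from one of suffix f, and the other 6 from plain sets. Some of these genes, such as Cel, are also known from liver. The array therefore carried signal of trypsin and chymotrypsin genes with no signal above background for Spink1, and what part pancreatic RNA has in the purchased sample was not tested.

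Secreted inhibitors also exist outside the 6 families of the rule. Of 15 genes measured from a fixed list of other inhibitors and their relatives, 10 passed the threshold, and the median lay at percentile 96.6. The list and its 10 bright genes include Hc, complement C5, an alpha-macroglobulin relative that is not itself a protease inhibitor (5907 and 5834). Ahsg, fetuin A, a cystatin relative, gave 36521 and 42934, and Pzp, an alpha-macroglobulin that traps proteases of many kinds, 32391 and 31266. Wfdc2, Wap, Reck, Tfpi and A2m were not above background, and A2m, listed separately from Pzp, gave at most 50.7.

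Several genes were read by more than 1 probe set, and the sets of a gene did not always give the same answer. Of the 39 genes 9 had several sets. For Serpinf1 the plain set was bright and the r set was not above background (418.2 and 151.5), and for Cst3 the i set was not above it (252.6 and 285.9). The r set of Serpinf2 gave 582.6 and 662.3 and the f set of Serpina6 1018 and 1306, above background on both arrays but far below the plain sets. The suffixes r and i mark sets whose probes met fewer of the design rules. Both sets of Serpina1c were bright, and all sets of Serpina5, Itih5 and Timp2 were below background.

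**Figure D3:**
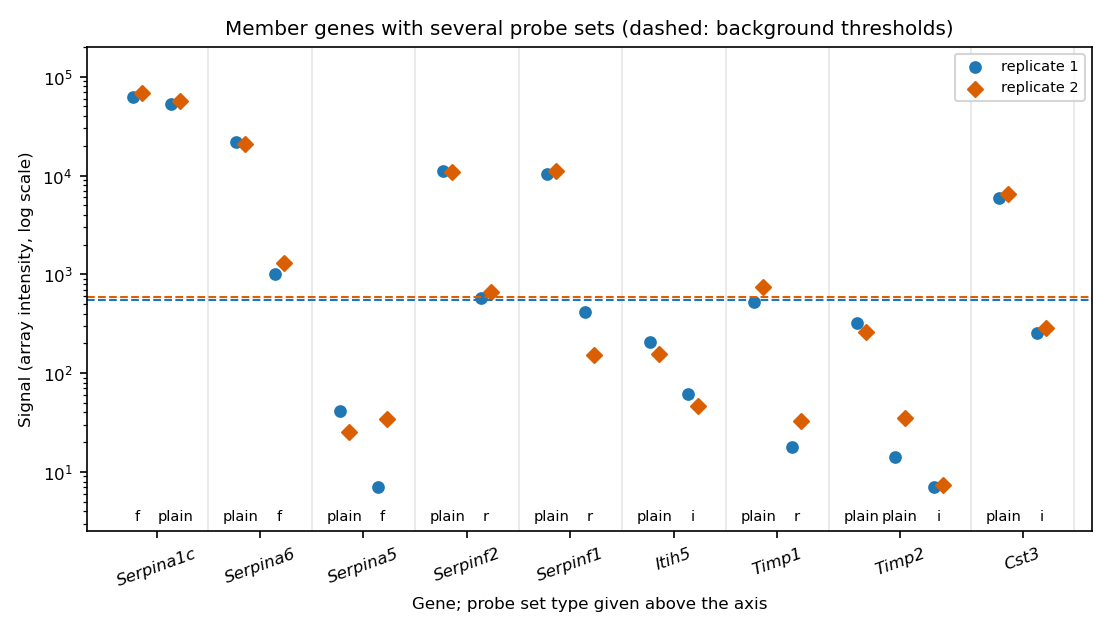
Signal (array intensity, log axis) of every probe set of the 9 member genes with several sets, on replicate 1 (circles) and replicate 2 (diamonds), with the set type written above the axis and dashed lines at the background thresholds. For Serpinf1 and Cst3 the sets of a gene lie on opposite sides of the thresholds.

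The arrays were alike for the bright members and less so for the dim ones. The 17 members above background differed by at most 1.17-fold (Cstb), and 0 of them passed 2-fold, against 0.0959% of all genes above background. The median absolute log2 difference was 0.09 in these 17, 0.12 in all 2086 genes above background and 0.09 in the brightest 10% of genes, among which all 17 lie. Of all 39 members 4 (10.3%) passed 2-fold, against 14% of all genes: Serpinb9e (100.1 and 24.7), Serpinb1a (65.5 and 22.8), Spink1 and Spint1. All 4 were below background on both arrays. The median absolute log2 difference was 0.44 in the 22 members that were not above background on both arrays, Timp1 included, and 0.39 in all such genes. Of the 17 bright members 12 were higher on replicate 2, with a median log2 difference of 0.09, replicate 2 minus replicate 1. The same direction was found in 54.7% of all genes above background (median 0.02) and in 61.1% of the brightest 10% of genes (median 0.04). After quantile normalization 8 of the 17 were higher on replicate 2 and the median was 0.00. Subtracting the median log2 difference of the brighter 50% of the array (-0.01) left the median of the 17 at 0.09. The direction was therefore lost with quantile normalization. A shift of -0.01 is too small to remove a median of 0.09, so subtracting it could not decide whether the direction holds. The cause of the direction was not tested.

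**Figure D4:**
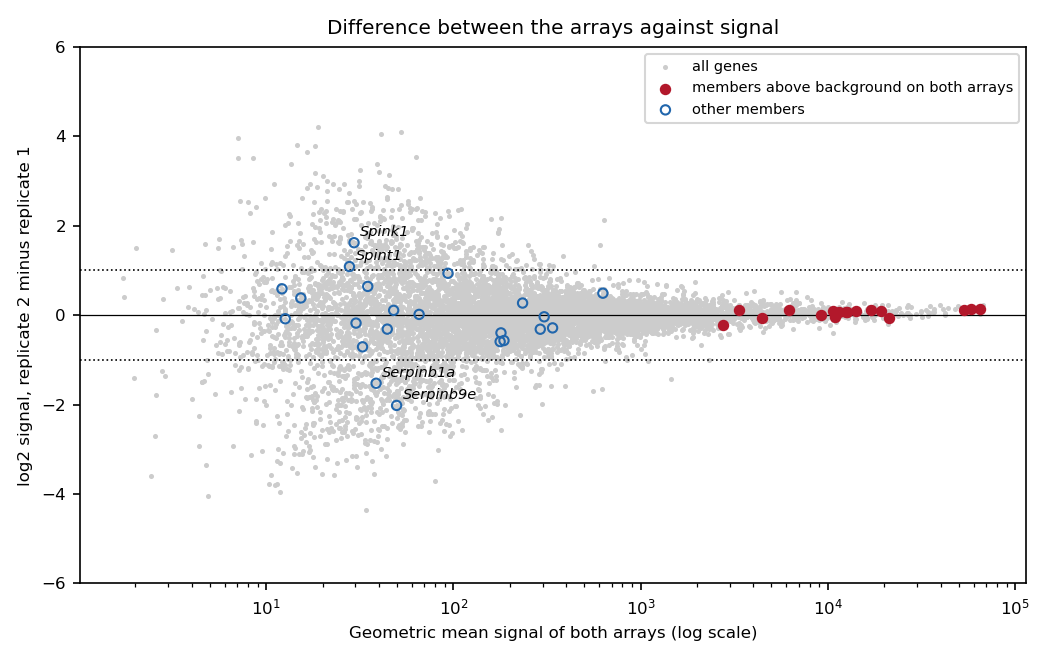
Difference of log2 signal (replicate 2 minus replicate 1) against the geometric mean signal of both arrays (log axis) for all 8251 genes (grey), the 17 members above background (filled) and the 22 other members (open); dotted lines mark 2-fold. The filled points lie between -0.23 and 0.14, and the 4 named genes beyond the dotted lines are all dim.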

How the data were processed

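Liver RNA was measured on 2 arrays, titled liver 1 and 2. The authors deposited 1 signal intensity per probe set and array, on a linear scale. The mean after trimming 2% at each end was 500.5 on both arrays; no label used here names the software, the scaling or a detection call. Of 12488 probe sets, 66 controls were left out; 10833 named 1 gene by the platform annotation, and 396 with several genes and 1193 with none were not used for gene values. All 39 members matched RefSeq by gene identifier. The arrays shared 16 identical values.

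The members and gene lists were chosen with earlier results of these data known. Background used 96 of 106 listed genes, of which 4 were above it. Genes were named by a rule: every bright member, the highest of each dim family, members whose sets disagreed, the 2 highest of each list and those completing a count of 5 or fewer. Further genes given with values (such as Elane, Ctsg, Tpsb2, Ambp, Hc, Col1a1, Col3a1, Lrp1, Lman1, Mcfd2 and Calr) were chosen after their values were seen. No test was made, because there is 1 group. Having 2 arrays limits precision. The alternatives were other background percentiles, gene readings, probe set types and scalings, and single arrays. Simulated data were used to test the steps. Values were computed with pandas 2.3.3 and numpy 2.4.6 under Python 3.11.15, and figures drawn with matplotlib 3.10.9.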

Additional observations from a re-analysis of the deposited data

Results flagged for a closer look

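Probe sets that name several genes were outside the gene values, and 4 of them name a member family. Of these, 3 carried signal above background on both arrays. The set of suffix f shared by Serpina1d, Serpina1c, Serpina1b and Serpina1a gave 58602 and 62715 (mean 60658), and the f set shared by Serpina1d, Serpina1c and Serpina1a gave 49145 and 57240 (mean 53192). The i set shared by all 5 copies from Serpina1a to Serpina1e gave 2332 and 2878 (mean 2605). Serpina1a and Serpina1d are named only by such shared sets. The r set shared by Serpinb9e, Serpinb9f, Serpinb9g and Serpinb9h gave 154.9 and 103.1, below background.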

How the results depend on the processing

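The count of 17 members above background ran from 16 to 18 over 8 alternatives, and that of 20 probe sets from 16 to 21 over 6. The 16 probe sets were those of plain sets alone, which left 37 member sets and 36 member genes to count. With the background at its 90th percentile (323.2 and 320.6) Timp1 was added, and at its 99th (995.6 and 910.1) the 17 were the same genes, while the share of all genes above it moved from 38.1% to 16.0%. With the dimmest probe set of each gene, background genes included, Cst3 and Serpinf1 fell below background. Timp3 has 1 set, and its unchanged signal passed the threshold, which was lower in that reading. With plain probe sets alone, the threshold was also set anew. Serpina1b and Serpina1e then had no set left, and Timp1 passed with its signal unchanged. The median percentile of the members was 61.8 with the dimmest set and 59.7 with plain sets alone. Among alternatives for the 4 genes over 2-fold, 1 gene was left with log2 of the signal plus 32, and 0 among genes above background, while there were 6 with the dimmest set and 5 with quantile normalization. The median log2 difference of the bright members fell from 0.09 to 0.00 with quantile normalization. It lay between 0.08 and 0.09 in its 6 other alternatives, among them the median over all members, dim ones included (0.08). No paired analysis was possible because there is 1 group. Low signals, close to background, limit what can be said of the 22 dim members.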

Other observations

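Genes that serve the folding, secretion and clearance of plasma inhibitors were also read. Of 10 such genes 6 were above background on both arrays, and the median lay at percentile 83.9. Vtn, vitronectin, a plasma partner of serpin complexes, gave 17426 and 16964, and Hspa5, the main chaperone of the endoplasmic reticulum, 5153 and 5021. Lrp1, a receptor that clears serpin and protease complexes, gave 3975 and 4075. The cargo receptor genes of the secretory route, Lman1 (2339 and 2431) and Mcfd2 (3660 and 4262), were above background. Calr, calreticulin, gave 16.4 and 28.4, and Canx, calnexin, 568.5 and 429.2, which passed the threshold on replicate 1 alone. Edem1 and Vldlr were below it.

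Markers of other liver cells were above background in part. They were 6 of 9 Kupffer cell and macrophage genes, led by C1qc (2541 and 2986) and Clec4f (2408 and 2615), 1 of 9 endothelial genes (Eng, 3677 and 4026), 3 of 9 stellate cell and fibroblast genes, led by Dcn (6587 and 7026), and 1 of 6 bile duct genes (Anxa4, 1051 and 940.2). The next endothelial gene, Kdr, gave 341.5 and 269.9 and the next bile duct gene, Cftr, 154.2 and 146.8.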
